A study of Mus musculus with 6 samples.

Results

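The genes described here are 44 type I interferon stimulated genes (ISGs) and the subunits of the type I interferon receptor, Ifnar1 and Ifnar2, in mouse regulatory T (Treg) cells that differentiated with or without sorafenib (Sora). The 46 genes were chosen by symbol from knowledge of the pathway. No measured value entered the rule, but earlier results of these data were known when it was set. Of the 46, 44 were in the count table of 22939 genes and 42 passed the filter on low counts, among 13463 genes tested. Mx1 and Mx2 were not analysed here, and Ifit3b and Ifi204 were below the filter.

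Type I interferons, interferon-α and interferon-β, bind the receptor made of Ifnar1 and Ifnar2. The kinases Jak1 and Tyk2 on the receptor then phosphorylate STAT proteins, among them Stat2, which join Irf9 in a complex. The complex binds a short DNA sequence in gene promoters, the interferon-stimulated response element (ISRE), and ISGs are switched on. Their proteins sense foreign RNA and DNA, block translation and viral budding, modify proteins with ISG15, and limit interferon signaling itself. T cells carry the receptor and keep a low tonic expression of many of these genes without infection.

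RNA was sequenced from 6 libraries, 3 of ctrl-Treg cells and 3 of Sora-Treg cells. Naive CD4+ T cells of mice that carry GFP in the Foxp3 gene, on a C57BL/6J background, were activated in culture by plate-bound antibodies to CD3 and CD28, and were steered to Treg cells by TGF-β1 together with antibodies to interferon-γ and IL4. Sora, an inhibitor of several kinases used in liver cancer, was added to the Sora-Treg cultures alone, and GFP+ cells were sorted from both. Both groups therefore carried the reporter allele and received the antibody to interferon-γ, and the labels do not give the Sora dose, the animal or the culture of a library, so p-values measure the spread between these libraries, which may be technical.

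Libraries held between 30727686 and 37717324 counts, and the 3 counts taken as the floor of detection corresponded to between 0.0762 and 0.0989 CPM (counts scaled to a common library size, with TMM factors here and below). These floors cover counting error only. Foxp3 lay between 252 and 278 CPM in all 6 libraries. Its groups overlapped and its difference was small (log2 fold change 0.07 ± 0.03 SE, edgeR adjusted p = 0.0405). Of 6 Treg and T cell genes, 5 were called higher in Sora-Treg cells, against 29.7% of all genes tested. Besides Foxp3 these were Cd4 at 0.06, Cd3e at 0.60, Il2ra at 0.97 and Ctla4 at 1.53, and Ikzf2 did not pass (0.02). Over expressed genes as a whole, Sora-Treg library 2 differed most from the others of its group. Before any result, 2 other libraries stood apart in the myeloid genes. The summed level of 7 myeloid genes was 93.5 and 93.0 CPM in ctrl-Treg libraries 1 and 2, against 24.9 CPM in ctrl-Treg library 3. In Sora-Treg cells the same sum was 22.3, 42.9 and 20.8 CPM. The results for the ISGs were also computed without ctrl-Treg libraries 1 and 2. That fit sets 1 ctrl-Treg library against 3, takes its spread from the Sora-Treg libraries alone and assumes that the lone library varies like them, so the values it gives are read here and a lost call shows little. In bulk RNA, fewer cells of a type and less RNA per cell cannot be told apart.

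Promoter sequences were read from RefSeq on GRCm38.p6, as windows of 300 bases around the start site (250 before it and 50 after). Of the 46 genes, 35 had a window, and Mx1, Mx2, Oas2, Ifi27, Dhx58, Usp18, Rtp4, Zbp1, Parp9, Parp14 and Ifi204 had none. The letters searched were the ISRE core GAAANNGAA on either strand, where N is any base. The pieces below are shown because they carry the match in genes whose levels are described next, including genes that went down, 1 that went up and 1 that did not pass the test. They run 5′ to 3′ in the direction of the gene, and capitals mark each match, which starts with TTC and ends with TTTC when it lies on the other strand. Overlapping matches run together as 1 stretch of capitals.
Isg15: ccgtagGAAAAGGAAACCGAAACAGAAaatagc
Ifit1: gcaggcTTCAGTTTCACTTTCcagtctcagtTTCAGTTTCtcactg
Ifit3: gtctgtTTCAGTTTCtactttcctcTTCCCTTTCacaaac
Oas1a: tctcggGAAATGGAAACTGAAaatcta
Oas3: ggaggaGAAAACGAAAGTGAAgggagg
Rsad2: ccaactTTCATTTTCagaaaa
Ifi44: tttctcTTCATTTTCtacagg
Ifih1: agaatcGAAACAGAAaccgat
Bst2: ttccagGAAAATGAAACTGAAaggctg
Samd9l: aaactgGAAACTGAAgca

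The pieces lie at chr4:156200870-156200902 on the minus strand for Isg15, at chr19:34640774-34640819 on the plus strand for Ifit1, and at chr19:34583402-34583441 on the plus strand for Ifit3. The Ifit3b window held the same 40 bases as Ifit3, at chr19:34607798-34607837 on the plus strand. All others are on the minus strand, at chr5:120907525-120907551 for Oas1a, chr5:120777714-120777740 for Oas3, chr12:26456557-26456577 for Rsad2, chr3:151749899-151749919 for Ifi44, chr2:62646209-62646229 for Ifih1, chr8:71537582-71537608 for Bst2 and chr6:3399522-3399539 for Samd9l. The last match of a piece began 66 bases before the start site in Isg15, 84 in Ifit1, 102 in Ifit3, 14 in Oas1a, 69 in Oas3, 119 in Rsad2, 3 in Ifi44 and 124 in Bst2. In Ifih1 and Samd9l it lay 32 and 38 bases after the start site, in transcribed sequence. The windows of Isg15, Ifit1, Ifit3 and Ifit3b each held 3 matches, of which the piece of Ifit3 shows 2, and the Ifih1 window held a further match before the start site.

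The core was found in 20 of the 35 genes with a window (57.1%), compared with 9.76% of 27025 genes of the RefSeq table and 8.46% of the 10701 tested genes that had a window. With the fifth letter also fixed, as GAAACNGAA, 11 genes (31.4%) held a match against 2.15% of all genes. The STAT site core TTCNNNGAA was in 8 genes (22.9%) against 9.55%, and such a match may overlap one to the ISRE core. Among tested genes with an ISRE core match the median log2 fold change was -0.63 over 19 genes, from -1.89 in Ifi44 to 0.54 in Samd9l. Without a match it was -0.39 over 15 genes, from -3.04 in Oasl1 to 0.15 in Ifnar1. The difference between these medians was not tested. A match is a description of letters in this window and does not show binding.

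Compared with ctrl-Treg cells, Sora-Treg cells had lower levels of most ISGs. Of 42 genes tested, 30 were lower (71.4%) and 5 were higher (11.9%) at an adjusted p under 0.05, and 7 did not pass. Over all 13463 genes tested by the same fit, 29.9% were lower and 29.7% were higher. The decreases were often large, with 14 genes (33.3%) at a log2 fold change under -1, a level that 4.97% of all genes passed. Only Zbp1 was higher by more than 1 on the log2 scale, against 6.30% of all genes. The median log2 fold change was -0.40, over a range from -3.04 to 1.22, while the median of all genes tested was -0.00. Scaling by library totals alone gave 2862 higher and 5614 lower among all genes in place of 3994 and 4028, and 3 higher and 31 lower among these 42. In 30 genes every Sora-Treg library lay under every ctrl-Treg library, against 32.0% of all genes, and in 8 genes every Sora-Treg library lay above, against 31.8%.

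**Figure D1:**
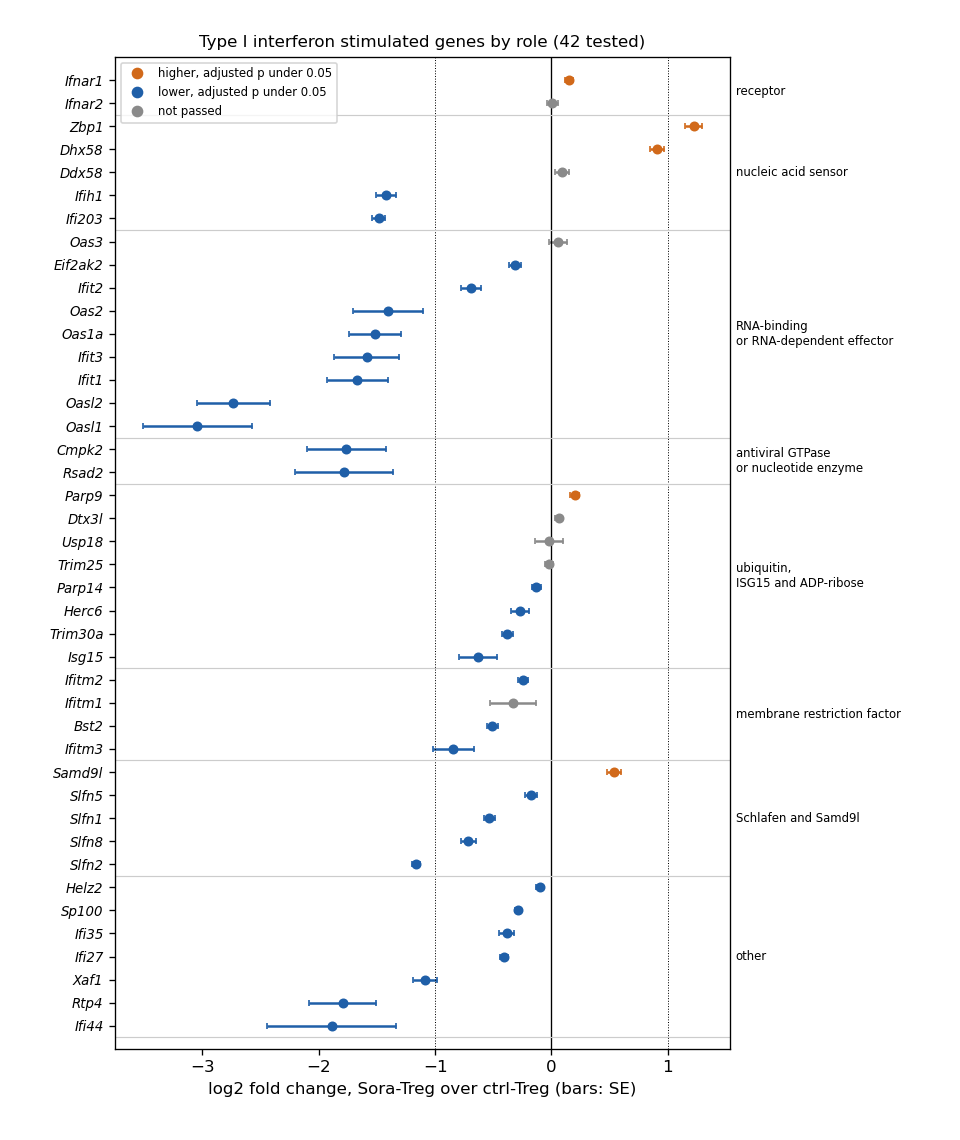
Log2 fold change of Sora-Treg over ctrl-Treg (x axis) for the 42 tested genes, grouped by role, with bars of 1 SE from the edgeR fit and dotted lines at -1 and 1. The effectors that act on RNA reach -3.04, and 2 of the 5 sensors lie to the right of 0 in orange.

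Few genes had passed the filter through the ctrl-Treg libraries. At or above the filter level in every library were 39 genes, of which 27 were lower and 5 were higher, with 11 lower past the log2 limit and a median of -0.38. Oasl1 and Ifi44 passed through the ctrl-Treg libraries alone, and Rsad2 lay between. Without ctrl-Treg libraries 1 and 2, the median was -0.38 over 41 genes tested. In that fit, with its lone ctrl-Treg library, 23 were called lower, 12 of them past the limit, and 5 higher. The calls lost were those of Isg15, Rsad2, Ifitm3, Herc6, Slfn5 and Helz2, and Ifi44 fell under the filter. Summed over the 44 genes, the level was 2039, 2032 and 2005 CPM in ctrl-Treg cells and 1740, 1763 and 1751 CPM in Sora-Treg cells, so every Sora-Treg library was below every ctrl-Treg library. As shares of all counts these genes took from 0.208% to 0.213% in ctrl-Treg and from 0.167% to 0.169% in Sora-Treg libraries.

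The receptor subunits did not share this decrease. Ifnar1, which binds Tyk2, measured 90.8, 89.8 and 88.2 CPM in ctrl-Treg cells and 102, 98.4 and 98.3 CPM in Sora-Treg cells. The groups did not overlap, and Ifnar1 was slightly higher in Sora-Treg cells (log2 fold change 0.15 ± 0.04 SE, edgeR adjusted p = 0.00113), a call that was lost at 0.04 when libraries were scaled by their totals alone. Ifnar2, which binds Jak1, measured 54.9, 54.4 and 57.1 CPM in ctrl-Treg cells and 54.9, 52.7 and 59.2 CPM in Sora-Treg cells. These groups overlapped, and Ifnar2 did not pass the test (0.01 ± 0.05 SE, edgeR adjusted p = 0.921), with a sign that turned under 6 of 15 alternatives. Per gene length, Ifnar1 at 13.5 FPKM (fragments per kilobase of gene length, scaled to library size, mean of 6 libraries) was above Ifnar2 at 8.33 FPKM.

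Among the RNA-binding and RNA-dependent effectors 8 of 9 tested genes were lower, against 29.9% of all genes. Past the log2 limit were 6 of them, against 4.97% of all genes, and the median was -1.52. The lower effectors included Oasl1 and Oasl2, the tested genes with the largest decreases. Oasl1, a relative of the oligoadenylate synthetases known to repress translation of Irf7 mRNA, measured 1.65, 0.852 and 1.35 CPM in ctrl-Treg cells and 0.0659, 0.188 and 0.197 CPM in Sora-Treg cells. The Sora-Treg values stood for 2, 6 and 7 counts, close to the floor of 3 counts, and every ctrl-Treg library was above every Sora-Treg library (log2 fold change -3.04 ± 0.47 SE, edgeR adjusted p = 6.56e-06). Oasl2, a further relative, was at 3.28, 3.05 and 1.85 CPM against 0.362, 0.408 and 0.449 CPM. It was 6.65-fold lower in Sora-Treg cells (-2.73 ± 0.31 SE, edgeR adjusted p = 9.89e-08), and -2.17 without ctrl-Treg libraries 1 and 2.

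The Ifit genes, which bind foreign RNA and halt its translation, were lower in all 3 tested members. Ifit1, which recognizes RNA that lacks methylation of the cap, measured 3.45, 3.13 and 2.32 CPM in ctrl-Treg cells and 0.791, 0.816 and 1.18 CPM in Sora-Treg cells. The groups did not overlap, and Ifit1 fell by 1.67 ± 0.26 (SE, log2, edgeR adjusted p = 8.90e-06). Ifit3, a relative of Ifit1, measured 1.98, 2.56 and 2.10 CPM against 0.725, 0.627 and 0.843 CPM, without overlap (-1.59 ± 0.28 SE, edgeR adjusted p = 3.88e-05). Of the 50-base stretches of Ifit3 transcripts, 51.2% are also in Ifit3b, so reads could have been split between them and the value of either is uncertain. Ifit3b had 7, 20 and 6 counts in ctrl-Treg and 1, 3 and 2 counts in Sora-Treg libraries and was not tested. Ifit2 was the most abundant of the tested Ifit genes at 2.80 FPKM, with 14.9 ± 0.365 CPM in ctrl-Treg and 9.26 ± 0.594 CPM in Sora-Treg cells (n = 3, SD), and it fell by 0.69 ± 0.09 (SE, log2, edgeR adjusted p = 4.52e-07).

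The oligoadenylate synthetases make short oligoadenylates that activate RNase L when they meet double-stranded RNA, and they did not move as 1 group. Oas1a measured 4.80, 4.15 and 3.10 CPM in ctrl-Treg cells and 1.55, 1.60 and 1.10 CPM in Sora-Treg cells, and it was lower without overlap (-1.52 ± 0.22 SE, edgeR adjusted p = 3.47e-06). Oas1a shares 57.6% of its 50-base stretches with Oas1g, whose highest library had 17 counts. Oas2 measured 1.57, 2.06 and 1.91 CPM against 0.758, 0.533 and 0.787 CPM and was lower as well (-1.41 ± 0.30 SE, edgeR adjusted p = 3.40e-04). Oas3, the largest enzyme of the family, measured 13.8, 14.2 and 13.5 CPM against 14.2, 14.5 and 14.6 CPM. It was at nearly the same level in all libraries (0.06 ± 0.08 SE, edgeR adjusted p = 0.543), and its sign turned to -0.06 with library totals. Its promoter piece above holds overlapping matches as that of Oas1a does. Eif2ak2, the kinase PKR that halts translation on double-stranded RNA, was at 49.3 ± 2.37 CPM and 39.7 ± 1.60 CPM (SD, n = 3), a modest decrease of -0.31 ± 0.05 (SE, edgeR adjusted p = 1.61e-05).

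Rsad2 and Cmpk2 encode viperin, which makes a nucleotide that stops viral polymerases, and a mitochondrial nucleotide kinase. Both were low and fell. Rsad2 had 32, 35 and 25 counts in ctrl-Treg and 7, 10 and 7 counts in Sora-Treg libraries, or 0.813, 0.962 and 0.783 CPM against 0.231, 0.314 and 0.197 CPM. Its groups did not overlap (log2 fold change -1.78 ± 0.42 SE, edgeR adjusted p = 9.28e-04), and without ctrl-Treg libraries 1 and 2 its value was -1.65. Cmpk2 measured 1.30, 2.03 and 1.60 CPM in ctrl-Treg and 0.560, 0.376 and 0.506 CPM in Sora-Treg cells (-1.76 ± 0.34 SE, edgeR adjusted p = 1.18e-04). Both lay between 0.148 and 0.340 FPKM, among the lowest levels of the tested genes.

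**Figure D2:**
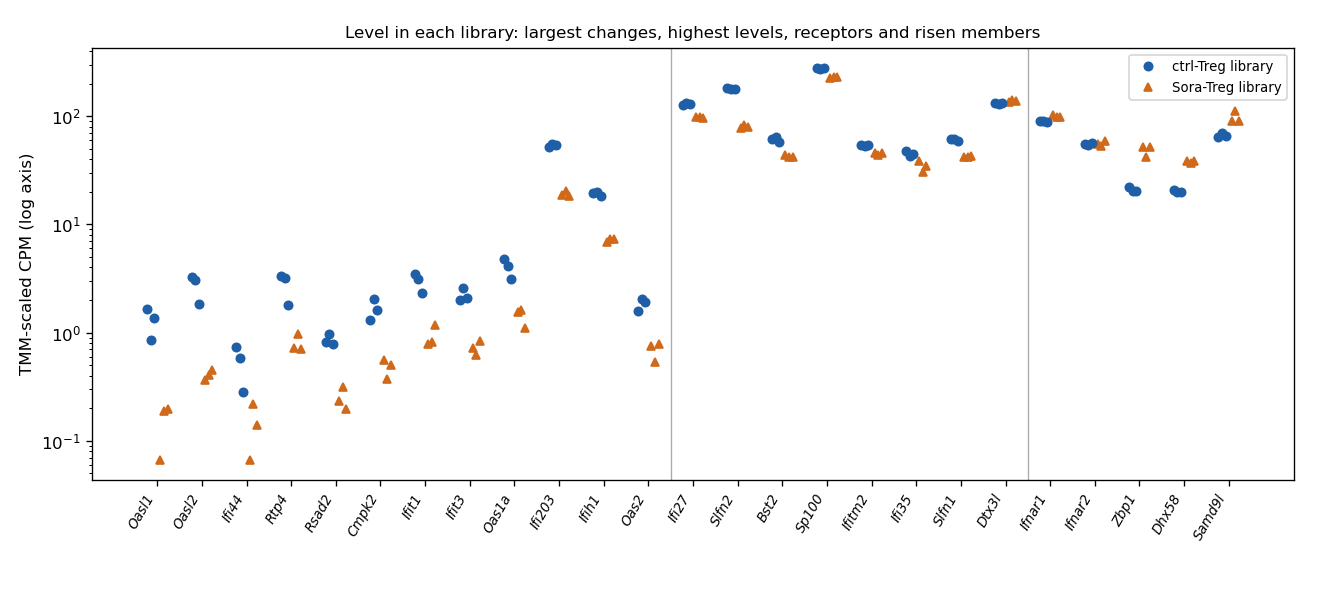
TMM-scaled CPM (y axis, log scale) of 25 genes in each library, ctrl-Treg as blue circles and Sora-Treg as orange triangles, in panels for the 12 largest changes, the 8 highest FPKM levels, and the receptor subunits with the risen Zbp1, Dhx58 and Samd9l. In the left panel all Sora-Treg points lie under the ctrl-Treg points, and in the right panel the points of Ifnar2 overlap.

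The nucleic acid sensors went both ways, with 2 higher and 2 lower among the 5 tested, against 29.7% and 29.9% of all genes. So few genes cannot set these shares apart from those of all genes. Ifih1, or MDA5, which senses long double-stranded RNA, measured 19.5, 19.9 and 18.3 CPM in ctrl-Treg cells and 6.82, 7.40 and 7.33 CPM in Sora-Treg cells. The groups were far apart compared with their spread, and Ifih1 was 2.67-fold lower (-1.42 ± 0.09 SE, edgeR adjusted p = 2.13e-12). Ddx58, or RIG-I, which senses RNA with a free triphosphate end, measured 27.2, 27.2 and 24.9 CPM against 27.7, 28.3 and 28.4 CPM. It did not pass (0.09 ± 0.06 SE, edgeR adjusted p = 0.220), and its value was -0.03 with library totals. Dhx58, or LGP2, the third RIG-I-like receptor, which lacks a signaling domain and tunes the other two, measured 20.6, 19.8 and 20.1 CPM against 38.5, 36.9 and 38.2 CPM. Dhx58 was 1.87-fold higher in Sora-Treg cells (0.91 ± 0.06 SE, edgeR adjusted p = 6.03e-12), so the members of this small family, by the same fit, were found lower, not passed and higher.

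Zbp1, a sensor of Z-form nucleic acids that can trigger necroptosis, was the gene with the largest increase. It measured 22.0, 20.5 and 20.2 CPM in ctrl-Treg cells and 52.0, 42.4 and 51.8 CPM in Sora-Treg cells. The lowest Sora-Treg library was well above the highest ctrl-Treg library, and Zbp1 was 2.33-fold higher (1.22 ± 0.07 SE, edgeR adjusted p = 6.96e-13). Ifi203, of the HIN-200 family of DNA-binding proteins, moved the opposite way, from 51.9, 54.9 and 54.0 CPM to 18.8, 20.3 and 18.3 CPM (-1.49 ± 0.06 SE, edgeR adjusted p = 2.98e-16). Exons of Ifi203 overlap those of Mndal on the same strand, which had from 1113 to 3325 counts, so reads of the pair may have been assigned to either. Ifi204, of the same family, had 24, 23 and 3 counts in ctrl-Treg and 0, 7 and 8 counts in Sora-Treg libraries. Its groups overlapped, ctrl-Treg libraries 1 and 2 alone were high, and it was not tested. The per-library values of Zbp1, Dhx58 and, below, Samd9l were picked out after they had been seen.

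The genes of protein modification by ISG15, ubiquitin and ADP-ribose went both ways, with 4 of 8 lower and 1 higher. Of all genes 29.9% were lower and 29.7% higher, and 8 genes are too few to differ clearly from that. None of the 8 was past the log2 limit, and their median was -0.08. Isg15, the ubiquitin-like modifier itself, measured 5.13, 5.08 and 4.20 CPM in ctrl-Treg cells and 2.93, 3.61 and 2.78 CPM in Sora-Treg cells. It was lower without overlap (-0.63 ± 0.16 SE, edgeR adjusted p = 0.00209), and against ctrl-Treg library 3 alone the value was -0.43. Usp18, which removes ISG15 from proteins and damps signaling at Ifnar2, measured 9.12, 9.04 and 6.95 CPM against 9.23, 7.81 and 7.87 CPM. The groups overlapped (-0.02 ± 0.12 SE, edgeR adjusted p = 0.904), ctrl-Treg library 3 was the lowest of the 6, and the sign changed with the library left out. Herc6, the main ISG15 ligase in mouse, measured 22.0, 23.8 and 19.5 CPM against 18.5, 18.5 and 17.2 CPM (-0.27 ± 0.08 SE, edgeR adjusted p = 0.00529), and the call was lost without ctrl-Treg library 2, at -0.20.

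Parp9 and Dtx3l, partners in an ADP-ribosylating ubiquitin ligase, share a promoter region and overlap on opposite strands. Parp9 measured 83.4, 85.7 and 80.4 CPM in ctrl-Treg cells and 96.2, 96.3 and 94.1 CPM in Sora-Treg cells, and it was higher without overlap (0.20 ± 0.04 SE, edgeR adjusted p = 9.81e-05), a call lost at 0.08 with library totals. Dtx3l measured 132, 129 and 133 CPM against 134, 140 and 138 CPM and did not pass (0.06 ± 0.03 SE, edgeR adjusted p = 0.120), with -0.05 under library totals. Whether counting used strand is not given in the sources used here, so the reads of the pair may not be fully separated. Parp14, a mono-ADP-ribosyltransferase, was lower by a small amount (-0.13 ± 0.04 SE, edgeR adjusted p = 0.00583), and so was Trim30a (-0.38 ± 0.05 SE, edgeR adjusted p = 2.67e-07), of the TRIM family. Trim25, a ubiquitin ligase that acts on RIG-I, had 112 ± 1.63 and 110 ± 0.838 CPM (SD, n = 3) and did not pass (-0.02 ± 0.03 SE, edgeR adjusted p = 0.569), though with library totals it did, at -0.14.

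The membrane restriction factors were lower in 3 of 4 genes, against 29.9% of all genes. Bst2, or tetherin, which holds budding virions on the cell surface, measured 61.0, 63.6 and 58.1 CPM in ctrl-Treg cells and 44.0, 42.3 and 42.3 CPM in Sora-Treg cells (-0.51 ± 0.05 SE, edgeR adjusted p = 2.67e-09). The Ifitm proteins block fusion of viruses with cell membranes, and Ifitm2 was the main family member here at 29.7 FPKM. It measured 53.9, 52.5 and 54.1 CPM against 45.8, 43.7 and 45.9 CPM (-0.25 ± 0.05 SE, edgeR adjusted p = 6.78e-05), with 48.5% of its 50-base stretches shared with other genes. Ifitm3 measured 5.89, 5.85 and 3.98 CPM against 2.83, 3.33 and 2.64 CPM. Every Sora-Treg library was below every ctrl-Treg library (-0.84 ± 0.18 SE, edgeR adjusted p = 2.53e-04), but ctrl-Treg library 3 was the nearest, and against that library alone the value was -0.44. Ifitm1 had 3.03 ± 0.385 and 2.41 ± 0.336 CPM (SD, n = 3), with overlapping groups, and did not pass (-0.33 ± 0.20 SE, edgeR adjusted p = 0.160).

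All 4 Schlafen genes were lower, against 29.9% of all genes. Slfn2, which is known to keep T cells quiescent, measured 183, 177 and 178 CPM in ctrl-Treg cells and 77.6, 83.6 and 79.7 CPM in Sora-Treg cells. The spread within a group was a few CPM, and Slfn2 was 2.24-fold lower (-1.16 ± 0.04 SE, edgeR adjusted p = 8.46e-18). Per gene length Slfn2 held the first place among the 44 genes in ctrl-Treg cells with a mean of 112 FPKM against 102 FPKM for Ifi27, and in Sora-Treg cells it was below Ifi27, with 46.3 against 71.0 FPKM. In neither group did the FPKM values of these genes overlap. Slfn1 measured 61.8, 61.4 and 59.1 CPM against 41.7, 41.8 and 42.5 CPM (-0.53 ± 0.04 SE, edgeR adjusted p = 4.81e-10). Slfn8 fell from 29.6 ± 0.671 to 18.1 ± 0.528 CPM (SD, n = 3; log2 fold change -0.71 ± 0.06 SE, edgeR adjusted p = 2.05e-09). Slfn5 measured 41.9, 39.4 and 39.6 CPM against 34.6, 36.5 and 36.1 CPM, without overlap (-0.17 ± 0.05 SE, edgeR adjusted p = 0.00631), and its value was -0.15 without ctrl-Treg libraries 1 and 2. Samd9l, an antiproliferative and antiviral protein placed with the Schlafen genes here, moved the opposite way, from 64.7, 70.0 and 65.3 CPM to 89.7, 111 and 90.5 CPM, or 1.45-fold higher (0.54 ± 0.06 SE, edgeR adjusted p = 4.59e-08).

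The remaining 7 genes were all lower, against 29.9% of all genes. Rtp4, a chaperone of membrane receptors, measured 3.30, 3.21 and 1.78 CPM in ctrl-Treg cells and 0.725, 0.972 and 0.702 CPM in Sora-Treg cells (-1.80 ± 0.29 SE, edgeR adjusted p = 1.20e-05). Its ctrl-Treg library 3 was the lowest of the group, still above every Sora-Treg library, and against that library alone the value was -1.15. Ifi44 had 29, 21 and 9 counts against 2, 7 and 5 counts, or 0.737, 0.577 and 0.282 CPM against 0.0659, 0.220 and 0.140 CPM (-1.89 ± 0.56 SE, edgeR adjusted p = 0.00559). It was the 1 tested gene that both ctrl-Treg libraries 1 and 2 held at least 2-fold above ctrl-Treg library 3, the pattern of the myeloid genes. Xaf1, which counters an inhibitor of apoptosis, had 13.0 ± 0.848 and 6.14 ± 0.164 CPM (SD, n = 3) and fell by 1.09 ± 0.10 (SE, log2, edgeR adjusted p = 2.44e-09).

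Abundant members of that group changed less. Ifi27, a mitochondrial protein and at 86.5 FPKM the highest of the 44 genes over all libraries, measured 127, 132 and 129 CPM in ctrl-Treg cells and 98.6, 97.4 and 97.2 CPM in Sora-Treg cells (-0.41 ± 0.03 SE, edgeR adjusted p = 6.86e-10). Sp100, a component of nuclear bodies, measured 281, 273 and 281 CPM against 225, 229 and 230 CPM (-0.29 ± 0.03 SE, edgeR adjusted p = 9.70e-09). Both pairs of groups were apart by many times their spread although the folds were small. Ifi35, a partner of Nmi, measured 47.2, 43.3 and 44.3 CPM against 38.2, 30.6 and 34.4 CPM (-0.39 ± 0.06 SE, edgeR adjusted p = 1.73e-05). Helz2, a helicase and nuclear coactivator, measured 165, 163 and 158 CPM against 151, 151 and 152 CPM, the smallest difference of those that passed (-0.10 ± 0.03 SE, edgeR adjusted p = 0.00856), and the call was lost without ctrl-Treg library 1, at -0.08.

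The larger decreases were among the genes of lower level. Split at a mean of 10 CPM, a limit set after the values were seen, the 15 genes under it held 13 lower. Of these 11 were past the log2 limit, the median of the 15 was -1.59, and the others, Usp18 and Ifitm1, did not pass. Those 11 include Oasl1 and Ifi44, which passed the filter through the ctrl-Treg libraries alone, and Rsad2, which lay between. Because the filter kept Oasl1 and Ifi44 by their ctrl-Treg level, their decreases lend no weight to this split. Among all 4692 tested genes under 10 CPM, 22.2% were lower and 11.2% were lower past the limit. The 27 genes at or above 10 CPM held 17 lower and 5 higher, with 3 lower past the limit (Ifih1 at 19.2 CPM in ctrl-Treg cells, Slfn2 and Ifi203) and a median of -0.25, and of all 8771 such genes 34.1% were lower and 1.64% lower past the limit. The 5 genes that rose were thus all at or above 10 CPM, and this split was not tested.

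**Figure D3:**
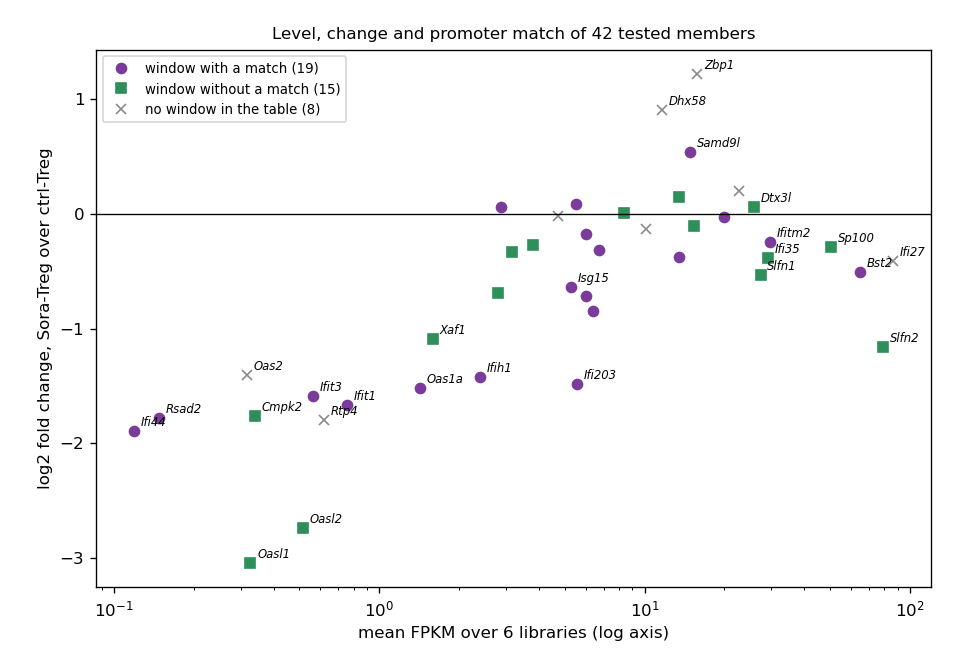
Mean FPKM over 6 libraries (x axis, log scale) against log2 fold change (y axis) for the 42 tested genes, marked by whether the RefSeq promoter window held an ISRE core match. Genes under 1 FPKM lie between -1.41 and -3.04, and genes with a match (median -0.63) and without (median -0.39) are found at low and high levels alike.

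The wider pathway was read from a list of 83 further genes, of which 76 were in the table and 66 were tested. Of these, 39 were lower (59.1%) and 15 higher (22.7%), with a median of -0.18, again beside 29.9% and 29.7% of all genes. Ligand transcripts analysed here, apart from Ifng, were below the floor of 3 counts. Ifnb1, which encodes interferon-β, had 1 count in ctrl-Treg library 3 and 0 in the other 5 libraries, and Ifne, Ifnk, Ifnl2 and Ifnl3 had 1 count each in all libraries together. Ifna1, Ifna2, Ifna4 and Ifna5 were not analysed here. Ifng, which encodes interferon-γ, against which both cultures held an antibody, had 54, 62 and 49 counts against 64, 45 and 47 counts, with overlapping groups (0.07 ± 0.27 SE, edgeR adjusted p = 0.850).

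The kinases, Stat2 and Irf9 were expressed in all libraries and moved by little. Jak1 measured 430, 423 and 447 CPM in ctrl-Treg cells and 447, 465 and 473 CPM in Sora-Treg cells (0.09 ± 0.03 SE, edgeR adjusted p = 0.00929), a call lost without Sora-Treg library 3 (0.07) and turned to -0.02 with library totals. Tyk2 was lower (-0.18 ± 0.04 SE, edgeR adjusted p = 4.01e-04). Stat2 was higher (0.17 ± 0.04 SE, edgeR adjusted p = 9.63e-04) and Irf9 was lower (-0.18 ± 0.04 SE, edgeR adjusted p = 0.00108), and against ctrl-Treg library 3 alone, where neither was called, the values were 0.13 and -0.12. The call of Stat2 was also lost with library totals, at 0.06. Per library, Stat2 measured 61.8, 61.6 and 64.3 CPM against 69.2, 72.4 and 69.9 CPM, and Irf9 lay between 67.0 and 72.5 CPM in ctrl-Treg and between 59.9 and 63.4 CPM in Sora-Treg cells.

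Interferon regulatory factors differed from each other. Irf7, an ISG and the factor that amplifies interferon production, measured 9.70, 9.62 and 8.14 CPM in ctrl-Treg cells and 4.38, 5.68 and 4.52 CPM in Sora-Treg cells. It had the largest decrease of the 5 genes tested (-0.92 ± 0.13 SE, edgeR adjusted p = 1.50e-06). Irf8, a factor of lymphoid and myeloid cells, measured 249, 239 and 240 CPM against 479, 466 and 478 CPM and was higher (0.97 ± 0.03 SE, edgeR adjusted p = 2.01e-18). Irf3, which acts directly below the sensors, was lower by a small amount (-0.16 ± 0.04 SE, edgeR adjusted p = 0.00256), and Irf1 did not pass (0.09 ± 0.04 SE, edgeR adjusted p = 0.0880), with -0.03 under library totals and a call at 0.11 without Sora-Treg library 1.

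Negative regulators of cytokine signaling went both ways, with 3 of 5 genes higher and 2 lower, against 29.7% and 29.9% of all genes. The lower genes were Ptpn6 and Ptpn11, at -0.14 and -0.27. Socs1, which binds and blocks Jak kinases, measured 64.7, 69.7 and 58.4 CPM in ctrl-Treg cells and 82.4, 77.0 and 76.6 CPM in Sora-Treg cells (0.29 ± 0.05 SE, edgeR adjusted p = 4.57e-05). Socs3, its relative in signaling by IL6-family cytokines, measured 209, 215 and 208 CPM against 410, 395 and 413 CPM (0.95 ± 0.03 SE, edgeR adjusted p = 6.08e-18). Among 10 tested genes of upstream sensing, 6 were lower and 3 higher. Ikbke, a kinase that activates Irf3 and Irf7, measured 273, 270 and 277 CPM against 130, 130 and 137 CPM and was the 1 gene of these past the log2 limit (-1.05 ± 0.03 SE, edgeR adjusted p = 5.78e-18). Sting1, the adaptor of DNA sensing, was at 167, 167 and 170 CPM against 132, 125 and 130 CPM (-0.38 ± 0.03 SE, edgeR adjusted p = 7.85e-10). The higher genes of upstream sensing were Ticam1, Myd88 and Tbk1, at 0.49, 0.21 and 0.11.

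**Figure D4:**
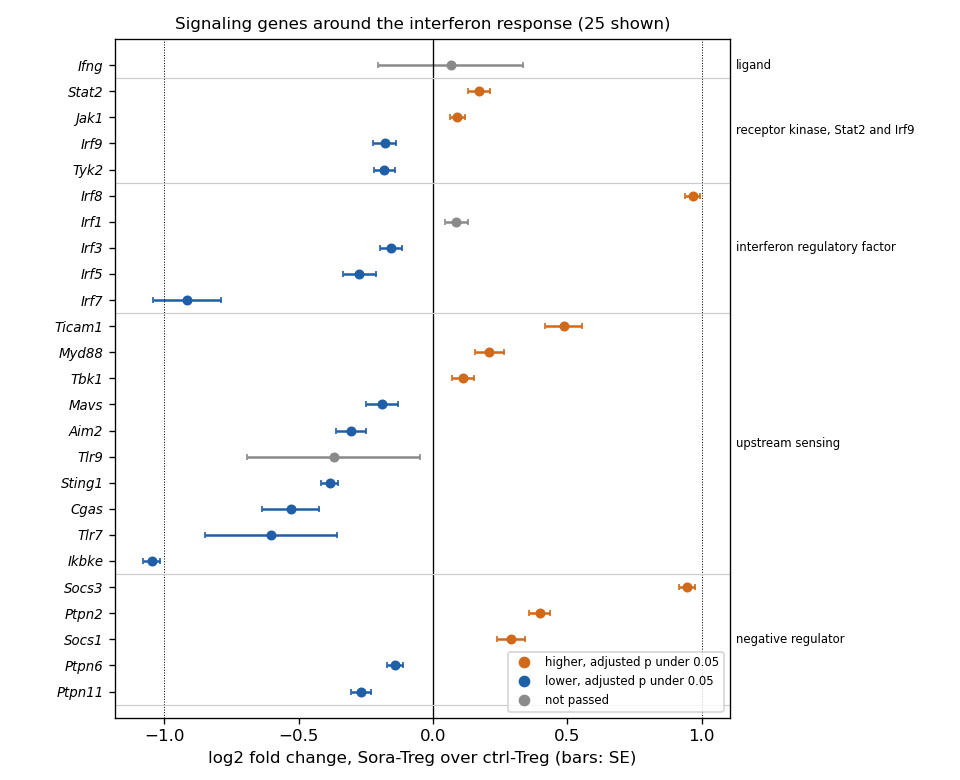
Log2 fold change of Sora-Treg over ctrl-Treg (x axis) with bars of 1 SE for 25 tested genes of the pathway around the ISGs, grouped by role. Jak1, Tyk2, Stat2 and Irf9 lie between -0.18 and 0.17, Irf7 at -0.92 and Irf8 at 0.97.

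A further 40 tested ISGs outside the 46 genes gave 25 lower, 6 higher and 9 not passed, with a median of -0.28. Of all genes tested, 29.9% were lower and 29.7% were higher. Past the log2 limit, 4.97% of all genes were lower and 6.30% were higher. Lower past that limit were 8 of the 40 ISGs. These include Ddx60 (-1.61 ± 0.19 SE, edgeR adjusted p = 1.12e-07), a helicase linked to RIG-I-like sensing, Ifi209 (-1.64 ± 0.11 SE, edgeR adjusted p = 5.48e-12) and Ifi213 (-1.91 ± 0.38 SE, edgeR adjusted p = 1.35e-04), both of the HIN-200 family, and Ifit1bl1 (-1.72 ± 0.24 SE, edgeR adjusted p = 1.57e-06), an Ifit1 relative. The others were Oas1c (-1.13 ± 0.12 SE), Parp12 (-1.31 ± 0.25 SE) and Tor3a (-1.06 ± 0.10 SE), each called by edgeR, and Trim12a, just past the limit. Higher past the limit were Ly6a, the surface marker Sca-1, from 65.8, 67.3 and 67.9 CPM to 229, 191 and 235 CPM (1.71 ± 0.05 SE, edgeR adjusted p = 1.11e-17), and Plac8, from 3.23 ± 0.313 to 10.7 ± 0.749 CPM (SD, n = 3) (1.73 ± 0.12 SE, edgeR adjusted p = 3.33e-11). Ifi213 measured 1.78, 1.76 and 1.25 CPM against 0.428, 0.627 and 0.225 CPM, and against ctrl-Treg library 3 alone it was at -1.55 and not called.

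Markers of cell types other than Treg cells are given beside these results, and only some of them moved with the groups. Of 7 myeloid genes 5 were called lower, against 29.9% of all genes, and in each of the 7 the groups overlapped. Lyz2, the most abundant, ran from 12.6 to 47.9 CPM in ctrl-Treg and from 4.66 to 21.2 CPM in Sora-Treg libraries. Of 3 conventional dendritic cell genes, Zbtb46 was lower (-1.90 ± 0.11 SE, edgeR adjusted p = 5.04e-13), and Itgax and Xcr1 were too low to be tested, with 8 counts or fewer per library. The sum of the 3, nearly all of it Zbtb46, ran from 14.4 to 16.3 CPM in ctrl-Treg and from 3.95 to 4.64 CPM in Sora-Treg libraries. Of 2 plasmacytoid dendritic cell genes, Cox6a2 was lower (-3.68 ± 0.31 SE, edgeR adjusted p = 7.64e-10) and Klk1 had 1 count in all libraries together. Their sums, nearly all Cox6a2, ran from 2.79 to 3.05 CPM and from 0.225 to 0.251 CPM. The further dendritic cell markers Clec9a (conventional) and Siglech (plasmacytoid) were not analysed here, so each of these sums rests on a single gene. Of 4 B cell genes 3 were tested and lower, with sums from 1.53 to 2.39 CPM and from 0.251 to 0.365 CPM, all given as ctrl-Treg and then Sora-Treg libraries.

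Lymphoid markers did not all move that way. Of 3 natural killer cell genes, Klrb1c and Klra7 had 1 count or none in each library, while Eomes, which T cells also express, was higher, from 2.34, 2.20 and 2.10 CPM to 4.12, 4.99 and 4.49 CPM (1.03 ± 0.17 SE, edgeR adjusted p = 2.02e-05). Of the CD8 genes, Cd8a was lower (-0.71 ± 0.22 SE, edgeR adjusted p = 0.00872) and Cd8b1 did not pass (0.04 ± 0.10 SE, edgeR adjusted p = 0.749). Neither of the 2 stromal genes tested passed, and the 3 erythroid genes had 4 counts or fewer in each library.

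In 6 of the 7 myeloid genes both ctrl-Treg libraries 1 and 2 were at least 2-fold above ctrl-Treg library 3. Of the 42 tested genes Ifi44 alone reached that limit, with the lower of the pair 2.05-fold above, and the untested Ifi204 and, in the wider list, Ifi207 reached it too. Smaller steps in the same direction were present in Rtp4 (1.80-fold), Oasl2 (1.65-fold), Ifitm3 (1.47-fold), Ifit1 (1.35-fold) and Oas1a (1.34-fold). Other genes with large decreases did not show this step. The lower of the pair was below ctrl-Treg library 3 in Oasl1 (0.633-fold), Cmpk2 (0.811-fold), Oas2 (0.824-fold), Xaf1 (0.894-fold) and Ifit3 (0.944-fold). In the remaining tested genes this ratio lay between 0.908 and 1.30. The part of these cell types in the results was not tested.

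**Figure D5:**
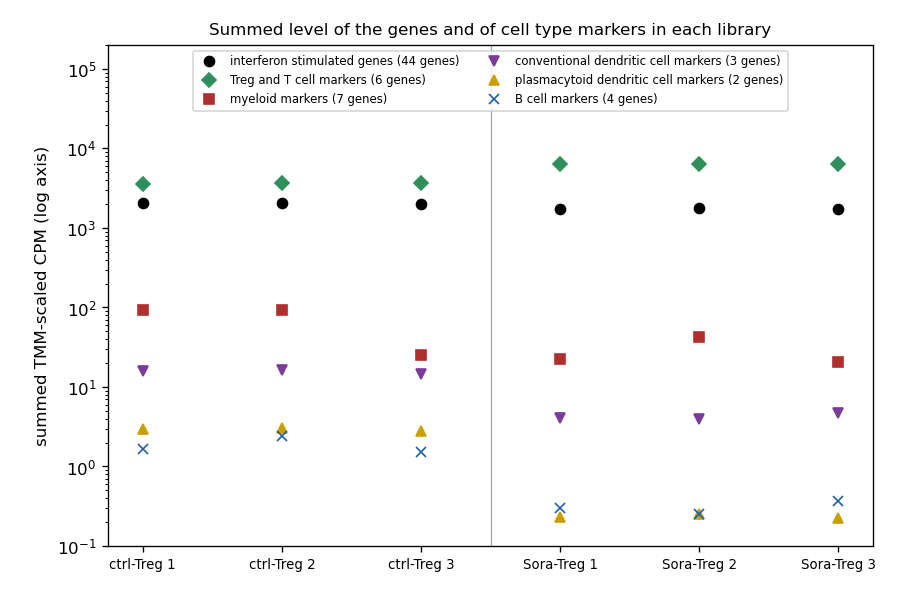
Summed TMM-scaled CPM (y axis, log scale) of the 44 genes and of 5 marker lists in each of the 6 libraries. The 44 genes lie between 1740 and 2039 CPM, and the myeloid sum is 93.5 and 93.0 CPM in ctrl-Treg libraries 1 and 2 and 42.9 CPM or less in the other 4.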

How the data were processed

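According to the study, reads were aligned to GRCm38 with Bowtie2 and expressed as FPKM by an expectation maximization method, whereas the submitters' processing notes name fastp, HISAT2, HTSeq, R 3.2.0, DESeq2 and GRCm39. The conflict could not be settled, and strand treatment and annotation release are not given in the sources used here. The authors deposited raw read counts per gene symbol, and these were tested. The deposited FPKM values equal the counts divided by library total and 1 length per gene (largest relative difference in implied length 1.15e-07 over 11534 genes), so they served only to compare levels between genes.

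Groups and replicate numbers came from the sample titles. Sora-Treg and ctrl-Treg libraries (3 each) were compared in R 4.3.3 by edgeR 4.0.16 with its quasi-likelihood test, TMM scaling, the filterByExpr filter and no covariate, and p-values were adjusted by the Benjamini-Hochberg method over all 13463 genes tested. A gene was called at an adjusted p under 0.05, and the fold limit was 1 on the log2 scale. SEs are those implied by the F statistic, and the common biological coefficient of variation was 4.29%. An exact permutation test of 3 against 3 libraries cannot go below 0.100, so none was used. No pair of libraries of a group agreed within sampling noise, so all were kept. The chi-square statistic per degree of freedom ran from 3.48 to 3.90 among ctrl-Treg pairs. It was 3.70 for Sora-Treg libraries 1 and 3, and 6.23 and 6.12 for the pairs with Sora-Treg library 2.

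The genes and lists were chosen with earlier results of these data known. The rule for named genes covered all 46 genes, the pathway genes past the fold limit, named regulators and the marker genes. It set per-library values for the receptor subunits, the 12 tested genes with the largest changes, the 8 with the highest FPKM and those of the 46 genes whose call an alternative removed, and per-library values of other genes were picked after they had been seen. Marker lists are given mainly by their sums. Shared 50-base stretches and exon overlaps were read from GENCODE transcripts and promoters from RefSeq. Alternatives were other scalings, filters, a robust fit, DESeq2 1.42.0, a replicate block and libraries left out. The fit was checked on simulated counts. Of the pathway list, 1 gene is counted but not reported singly here.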

Additional observations from a re-analysis of the deposited data

How the results depend on the processing

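Over 15 alternatives, 28 of the 42 tested genes kept both sign and call throughout, wherever a fit tested them. The count of lower genes ranged from 28 to 31 and of those past the fold limit from 13 to 16 with 1 library left out, the count of higher genes stayed at 5, and the median ran from -0.46 to -0.38. Scaling by library totals alone moved the median of all genes by -0.12 (2862 higher and 5614 lower over all genes), and the genes here then gave 3 higher and a median of -0.51, a value that includes that shift. It turned Oas3 to -0.06, Ddx58 to -0.03, Dtx3l to -0.05, Ifnar2 to -0.11, Ifng to -0.05, Jak1 to -0.02 and Irf1 to -0.03. Keeping every gene with a count of at least 1 gave a median of -0.47, over 44 genes tested in place of 42. Ifnar2 was also -0.03 with upper quartile scaling, -0.01 with that filter, -0.0047 without ctrl-Treg library 2, -0.04 without Sora-Treg library 3 and -0.04 without ctrl-Treg libraries 1 and 2. Usp18 was 0.05 and 0.04 without ctrl-Treg library 1 or 2, 0.02 without Sora-Treg library 2 or 3, 0.25 without both of the first, and -0.13 at its lowest, without ctrl-Treg library 3. Ifng was -0.01 without ctrl-Treg library 1 -0.17 without Sora-Treg library 1 and 0.20 without Sora-Treg library 3. Stricter ISRE letters left 11 matches instead of 20. The cause of these changes was not tested.

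Pairing by replicate number was not apparent, as the deviations of equal-numbered libraries correlated weakly, at 0.0222, 0.116 and 0.0899. Weak correlation cannot show that the libraries were unpaired, and the labels do not say. A fit with the replicate block gave 30 lower and 5 higher genes, 14 of them lower past the limit. At this depth the genes under 1 CPM rest on few counts, such as 2 to 7 for Oasl1 in Sora-Treg libraries.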
